A study of Mus musculus with 24 samples.

Results

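The tumour necrosis factor (TNF) superfamily members described here are the mouse genes whose symbols start with Tnfsf (ligands) or Tnfrsf (receptors) followed by a digit. Each was read from 1 Affymetrix probe set annotated to that gene alone, the brightest over all 24 arrays where a gene had several. The rule found 27 genes among 18193 with such a probe set. They were 7 ligands, 19 receptors and 1 antisense transcript, Tnfsf13os. The rule uses symbols and brightness, and no difference between groups. The RefSeq gene table lists 32 genes of this form. Of the other 5, Tnfsf12 and Tnfsf13 were measured only by probe sets shared with a neighbour, and Tnfsf15, Tnfsf18 and Tnfrsf26 had no probe set here.

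RNA was measured in mouse lung on MOE 430 2.0 arrays. The 14 tumour samples were nodules cut out by eye from bitransgenic mice carrying a mutant EGFR transgene, named by the labels C/L858R (4 arrays), C/L+T (5 arrays, here L858R+T790M) and C/T790M (5 arrays). L858R is an activating mutation of the EGFR kinase and T790M is the change known for resistance to first-generation EGFR inhibitors. All tumour-bearing mice were fed doxycycline, the inducer, for 3 to 6 months. The 10 normal lungs came from littermates with no transgene or a single one, also on doxycycline. Strain was FVB for the L858R+T790M tumours, the T790M tumours and 5 normal lungs (FVB normals), and FVB mixed for the L858R tumours and the other 5 normal lungs (mixed-strain normals). Each tumour group was therefore set against the normals of its own strain label. L858R+T790M and T790M tumours share the FVB normals. The labels give neither the promoter behind the transgenes, nor the age or sex of the animals, nor whether each array is a separate animal. The p-values thus describe the spread among these arrays, which may be technical. A nodule was compared with whole lung, which holds many more cell types.

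TNF ligands are mostly membrane proteins that act as trimers on receptors of neighbouring cells and can be shed. A subset of the receptors (Tnfrsf1a, Tnfrsf10b, Tnfrsf21, Tnfrsf25) carry a cytoplasmic death domain and can start caspase activation, while most others bind TRAF adaptors and feed into NF-kB and MAP kinase signalling. In lung the family is known for T cell costimulation (Tnfsf9 with Tnfrsf9, Tnfsf4 with Tnfrsf4), B cell survival (Tnfsf13b with Tnfrsf13c), apoptosis (Tnfsf10 with Tnfrsf10b) and epithelial injury and repair (Tnfsf12 with Tnfrsf12a).

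For 5 members on which the results below turn, the RefSeq table of mouse promoters (GRCm38.p6) gave the 250 bases before the annotated start, printed 5′ to 3′ in the direction of the gene. These 5 were picked by their direction in these data, so a contrast of motifs between them is no test. Tnfrsf12a and Tnfrsf21 were called higher in all 3 genotypes and Tnfrsf9 in L858R+T790M tumours alone. Tnfsf10 and Tnfrsf19 were called lower in all 3. Tnfrsf12a lies at chr17:23677450-23677699 on the minus strand, Tnfrsf21 at chr17:43016305-43016554, Tnfrsf9 at chr4:150919905-150920154 and Tnfsf10 at chr3:27316827-27317076 on the plus strand, and Tnfrsf19 at chr14:61046856-61047105 on the minus strand. For Tnfrsf9 and Tnfrsf19, which have 2 annotated starts, the 5′-most was used. Capitals mark every match to GGGCGG (GC box) or CCGGAAG (ETS core) on either strand.
Tnfrsf12a: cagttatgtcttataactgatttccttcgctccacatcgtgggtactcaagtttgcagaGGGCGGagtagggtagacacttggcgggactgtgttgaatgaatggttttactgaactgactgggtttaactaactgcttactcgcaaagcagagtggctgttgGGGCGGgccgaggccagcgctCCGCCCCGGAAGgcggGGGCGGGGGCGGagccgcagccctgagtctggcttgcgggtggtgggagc
Tnfrsf21: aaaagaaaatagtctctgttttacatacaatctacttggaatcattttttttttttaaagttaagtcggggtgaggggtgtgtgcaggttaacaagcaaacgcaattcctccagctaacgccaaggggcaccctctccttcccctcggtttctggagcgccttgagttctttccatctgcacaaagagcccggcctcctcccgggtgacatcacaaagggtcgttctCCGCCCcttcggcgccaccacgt
Tnfrsf9: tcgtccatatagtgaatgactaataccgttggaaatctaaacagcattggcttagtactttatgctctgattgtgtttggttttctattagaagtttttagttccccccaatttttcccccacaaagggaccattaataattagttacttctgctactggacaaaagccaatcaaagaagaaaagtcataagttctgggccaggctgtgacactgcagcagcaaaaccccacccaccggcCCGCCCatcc
Tnfsf10: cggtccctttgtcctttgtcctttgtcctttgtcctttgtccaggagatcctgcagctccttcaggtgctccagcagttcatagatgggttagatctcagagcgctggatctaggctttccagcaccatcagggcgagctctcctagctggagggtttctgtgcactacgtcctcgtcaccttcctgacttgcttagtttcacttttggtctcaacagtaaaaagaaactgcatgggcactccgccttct
Tnfrsf19: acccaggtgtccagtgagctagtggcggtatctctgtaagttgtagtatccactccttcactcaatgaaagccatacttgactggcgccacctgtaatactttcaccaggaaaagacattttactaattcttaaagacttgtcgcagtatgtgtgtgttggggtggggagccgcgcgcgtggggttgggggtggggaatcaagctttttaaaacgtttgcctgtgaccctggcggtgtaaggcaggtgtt

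The Tnfrsf12a window held 5 GC boxes and 1 ETS match, the latter 61 bases before the start and overlapping a GC box read on the other strand. Tnfrsf21 and Tnfrsf9 each held 1 GC box, on the antisense strand. The Tnfsf10 and Tnfrsf19 windows held neither motif. Tnfsf9, Tnfsf4, Tnfrsf10b, Tnfrsf11b, Tnfrsf22 and Tnfsf13os had no promoter in the table, so their motifs were not searched. The other 21 of the 27 members had one. GGGCGG was found in 9 of these 21 (Tnfrsf9, Tnfrsf11a, Tnfrsf12a, Tnfrsf21, Tnfrsf23, Tnfrsf1b, Tnfrsf8, and also Tnfrsf13c and Tnfrsf17, which were lower in L858R tumours), against 32.7% of all 32851 windows. It was not found for Tnfsf11, which was higher in all 3 genotypes. CCGGAAG was found in 3 (Tnfrsf12a, Tnfrsf1a and Tnfrsf1b), against 6.91% of all windows. TGANTCA (AP-1) was found in 2 (Tnfrsf8 and Tnfsf14), against 6.75%, and GGANTTTCC (NF-kB) in 0, against 1.07%. At that share a count of 0 in 21 windows was likely from the start and is no result. Each member was counted by 1 window, whereas the 32851 windows hold more than 1 start for some genes. These are matches of letters in a short window and no measure of binding.

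The array medians ranged from 7.21 to 7.34 on the log2 scale of the deposited values. The first principal component over all genes, with 58.1% of the variance, placed the normal lungs no higher than -43.2 and the tumours no lower than 12.6, apart from T790M tumour 1 at -2.96. The lists of alveolar type 2 and epithelial junction genes were higher on every tumour array than on any normal array: the type 2 mean ran from 13.01 to 13.20 in normals and from 13.39 to 13.90 in tumours. The counts that follow are of genes called in limma (adjusted p under 0.05) against the normals of the same strain label. Over all genes, 23.3%, 20.2% and 21.9% were called higher in L858R, L858R+T790M and T790M tumours. Called lower were 18.1%, 16.1% and 17.9%. Lists of other lung cells were lower: 8 of 8 endothelial genes in L858R and in L858R+T790M and 7 of 8 in T790M tumours. In the same order, 7, 6 and 6 of 8 fibroblast genes were lower. In bulk tissue, fewer cells of a type and less RNA per cell cannot be told apart. Immune lists were lower as well, in the same order of genotypes: 6, 7 and 7 of the 8 T cell genes, 5, 4 and 3 of the 7 B cell genes, 5, 5 and 7 of the 7 genes for NK and cytotoxic cells, and 6, 6 and 3 of the 6 for monocytes and dendritic cells. Alveolar macrophage genes were higher in L858R tumours (5 of 7), and 1 of 7 was higher and 1 lower in L858R+T790M and 1 lower in T790M tumours. Of 6 alveolar type 1 genes, 1, 1 and 0 were higher and 4, 3 and 5 lower. Of 5 neutrophil genes none was higher and 0, 1 and 4 were lower. FVB normals were split here: the neutrophil mean was 11.19 and 11.07 in normals 2 and 5, and 8.42 to 9.15 in the others. T790M tumours ran from 6.89 to 8.65. Of 5 plasma cell genes 1, 1 and 1 were higher and 2, 1 and 1 lower. For some lists, the range over the arrays of a group is given below beside members.

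Of the 27 members, 16 passed the test in L858R tumours against mixed-strain normals (limma, adjusted p under 0.05), against 41.4% of all 18193 genes. They were 7 higher and 9 lower, against 23.3% and 18.1% of all genes. In L858R+T790M tumours against FVB normals 14 passed, against 36.2% of all genes, 10 of them higher and 4 lower, against 20.2% and 16.1%. In T790M tumours against FVB normals 9 passed, against 39.8% of all genes, 4 of them higher and 5 lower, against 21.9% and 17.9%; with array medians centred these T790M counts were 7 and 3. These are 59.3%, 51.9% and 33.3% of the members. The members' median log2 difference was -0.03, 0.09 and 0.09 in the 3 comparisons, against 0.05, 0.03 and 0.00 over all genes. Differences of at least 2-fold that passed were found in 7 members in L858R, 8 in L858R+T790M and 3 in T790M tumours, against 10.8%, 8.45% and 8.42% of all genes. The arrays of tumours and normals did not overlap, in either direction, for 16 members in L858R, 12 in L858R+T790M and 5 in T790M tumours, against 35.8%, 29.8% and 29.8% of all genes. By genotype, 4 members were higher in all 3 tumour groups (Tnfsf9, Tnfrsf12a, Tnfrsf21 and Tnfsf11), against 12.8% of all genes, 2 were lower in all 3 (Tnfsf10 and Tnfrsf19), against 11.2%, 14 passed in 1 or 2 groups and 7 in none. No member was called higher in 1 genotype and lower in another. Leaving out 1 array at a time gave 10 to 16 members in L858R (10 without L858R tumour 4), 10 to 14 in L858R+T790M and 5 to 12 in T790M tumours (5 without FVB normal 2, 12 without T790M tumour 1).

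**Figure D1:**
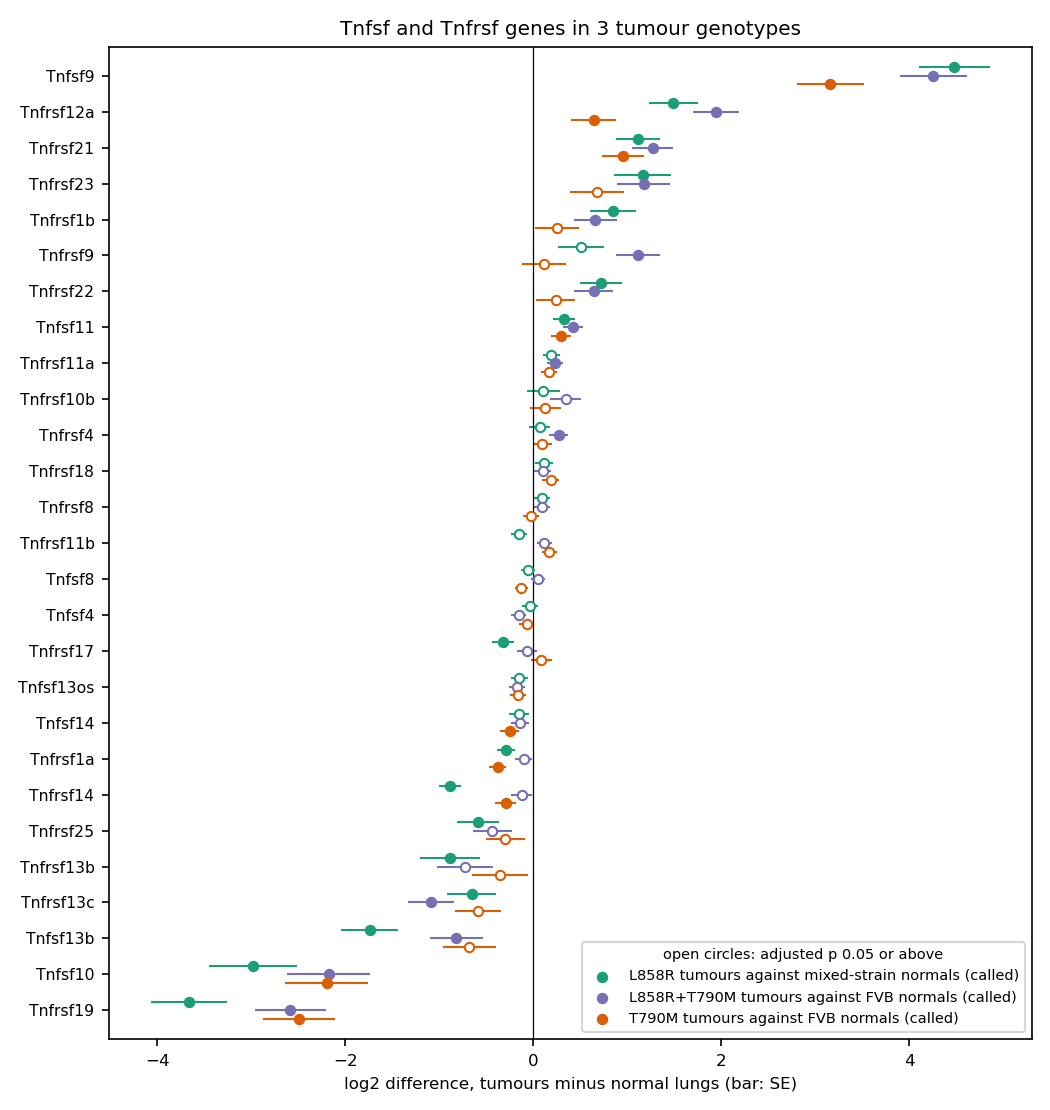
Log2 difference (x axis, tumour minus normals of the same strain label, with its standard error) of all 27 members (y axis), 1 colour per tumour genotype. Filled points passed the test at adjusted p under 0.05 and open points did not; Tnfsf9 is at the right at 4.48, 4.26 and 3.16, and Tnfrsf19 at the left at -3.67, -2.58 and -2.49.

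Tnfsf9 (4-1BB ligand), a costimulatory ligand usually found on activated antigen-presenting cells, had the highest positive difference of the family in each genotype. Its log2 level in FVB normals was 6.96, 6.68, 6.26, 6.60 and 6.93, and in mixed-strain normals 6.22, 6.40, 6.38, 6.73 and 7.15. L858R tumours read 11.13, 11.15, 11.03 and 10.93. L858R+T790M tumours read 11.28, 10.34, 10.69, 11.32 and 11.08, and T790M tumours 10.79, 9.61, 10.56, 7.96 and 10.31. Every tumour lay above every normal lung; the lowest tumour was T790M tumour 4, the only one below 9.61. The normal values lay below the array medians and no detection call was used here, so the folds are those of RMA values. The L858R rise was 22.4-fold (log2 difference 4.48 ± 0.38 SE, limma adjusted p = 1.67e-08). The L858R+T790M rise was 19.1-fold (4.26 ± 0.36, adjusted p = 2.01e-08), and the T790M rise 8.94-fold (3.16 ± 0.36, adjusted p = 1.04e-06). Tnfsf9 passed in each of these comparisons whichever array was left out. Between L858R+T790M and T790M tumours it differed by 1.10 ± 0.36, which did not pass (adjusted p = 0.117). On the same arrays the epithelial junction list ran from 11.11 to 11.94 in tumours, against 10.01 to 10.36 in normals, and the type 2 list was higher too, as was the alveolar macrophage list in L858R tumours. The T cell list was lower in all 3 genotypes. Their part in the Tnfsf9 difference was not tested.

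Tnfrsf9 (4-1BB, CD137), the receptor of Tnfsf9, is known on activated T and NK cells. It was narrow in normal lung, at 7.38, 7.56, 7.51, 7.48 and 7.43 in FVB and 7.46, 7.34, 7.47, 7.38 and 7.41 in mixed-strain normals. L858R+T790M tumours read 9.12, 8.30, 7.94, 8.03 and 9.56, all above every normal lung. L858R tumours read 7.48, 8.01, 7.69 and 8.51 and T790M tumours 7.22, 7.58, 7.69, 7.67 and 7.77. The L858R tumours also lay above their own mixed-strain normals, the nearest at 7.48 against 7.47. The rise in L858R+T790M tumours was 2.17-fold (1.12 ± 0.23, adjusted p = 0.00063). The differences in L858R (0.51 ± 0.25, adjusted p = 0.103) and T790M tumours (0.11 ± 0.23, adjusted p = 0.736) did not pass. A second probe set for Tnfrsf9 differed by more (1.35, 2.41 and 0.50 in L858R, L858R+T790M and T790M, the first 2 passing after adjustment over all probe sets other than controls, as for every further probe set below) and another did not pass (-0.04, 0.15 and -0.04). The mean of 8 T cell genes was 6.96 to 7.56 in L858R+T790M tumours against 7.83 to 8.34 in FVB normals. On the arrays with the highest Tnfrsf9, L858R+T790M tumours 1 and 5, Gzmb, a granzyme of cytotoxic cells, read 8.17 and 9.67, against 7.07 to 7.47 in tumours 2, 3 and 4 of that genotype; FVB normals ran from 7.96 to 9.01. Klrk1, a receptor of NK and cytotoxic T cells, read 7.30 in tumour 1 and 8.59 in tumour 5, against 6.75 to 7.36 in the others of the genotype and 7.64 to 8.38 in FVB normals. Neither gene passed in L858R+T790M tumours (-0.34, adjusted p = 0.489, and -0.56, adjusted p = 0.0674). Other genes of the NK and cytotoxic list did not share this pattern. Prf1 read 6.81 and 6.76 in tumours 1 and 5, against 6.97 to 7.03 in the others of the genotype. Ncr1 and Eomes were lowest in tumour 5 (5.99 and 5.78) and Gzma was highest in tumour 3 (8.54). Nkg7 read 7.40 in tumour 1, 7.86 in tumour 5 and 7.83 in tumour 3. The part of these cells in the Tnfrsf9 difference was not tested.

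Tnfrsf12a (Fn14), the receptor of the ligand TWEAK (Tnfsf12), is known as an inducible receptor of injured epithelium. FVB normals read 10.39, 10.13, 10.07, 9.94 and 9.64 and mixed-strain normals 10.16, 10.26, 10.11, 10.07 and 10.11. L858R tumours read 11.70, 11.61, 11.26 and 11.97, L858R+T790M tumours 12.33, 11.77, 11.56, 11.91 and 12.33, and T790M tumours 10.32, 11.85, 10.77, 9.99 and 10.45. In the first 2 genotypes every tumour was above every normal lung, whereas T790M tumours 1 and 4 were within the normal range. Tnfrsf12a rose 2.81-fold in L858R (1.49 ± 0.26, adjusted p = 7.27e-05) and 3.85-fold in L858R+T790M tumours (1.95 ± 0.24, adjusted p = 2.52e-06). The rise in T790M tumours was 0.64 ± 0.24 (adjusted p = 0.0383) and was lost in 6 of 10 fits that left out 1 array. Without T790M tumour 2 it was 0.35 with adjusted p = 0.129. A second probe set gave 1.62, 2.01 and 0.75, each passing. The window with 5 GC boxes shown above belongs to this gene.

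The TWEAK and APRIL ligand genes Tnfsf12 and Tnfsf13 are adjacent, and both probe sets that read them also read the fusion transcript Tnfsfm13. The probe set for all 3 was 0.82 higher in L858R (adjusted p = 0.000985) and 0.48 higher in T790M tumours (adjusted p = 0.0321), and did not pass in L858R+T790M tumours (0.12, adjusted p = 0.643). The probe set for Tnfsf12 and the fusion alone was lower in each genotype, with log2 differences of -0.94 (adjusted p = 2.4e-05), -0.78 (adjusted p = 0.000135) and -0.81 (adjusted p = 8.8e-05). The 2 probe sets moved in opposite directions in L858R and T790M tumours, so no direction is given for either gene. Tnfsf13os, antisense to this locus, did not pass in any comparison of tumours with normals.

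Tnfrsf21 (death receptor 6) rose in each genotype. Normal lungs read 8.85, 9.01, 8.87, 9.27 and 8.98 (FVB) and 8.77, 9.10, 9.0, 9.21 and 9.17 (mixed strain). L858R tumours read 10.18, 10.41, 9.88 and 10.21, L858R+T790M tumours 10.79, 9.96, 10.06, 10.18 and 10.34, and T790M tumours 9.31, 10.80, 9.58, 10.52 and 9.54. Each of the 14 tumours was above each of the 10 normal lungs, the nearest being T790M tumour 1 at 9.31 against 9.27. The differences were 1.12 ± 0.23 (adjusted p = 0.000554), 1.27 ± 0.22 (adjusted p = 0.000106) and 0.95 ± 0.22 (adjusted p = 0.00151) in L858R, L858R+T790M and T790M tumours. All 3 passed whichever array was left out, and a second probe set gave 0.74, 0.92 and 0.72, each passing.

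Tnfrsf22 and Tnfrsf23, adjacent genes known as decoy receptors for the ligand TRAIL that lack a death domain, rose in L858R and L858R+T790M tumours. For Tnfrsf23, FVB normals read 6.56, 6.88, 6.63, 6.84 and 6.82 and mixed-strain normals 6.73, 6.71, 6.90, 6.61 and 6.87. L858R tumours read 7.36, 8.33, 7.30 and 8.72, L858R+T790M tumours 8.35, 7.84, 7.67, 7.79 and 7.95, and T790M tumours 6.71, 8.74, 7.31, 7.28 and 7.09. Only T790M tumour 1 lay within the normal range. The differences were 1.16 ± 0.30 (adjusted p = 0.00351) and 1.17 ± 0.28 (adjusted p = 0.00236), and 0.68 ± 0.28 in T790M tumours, which did not pass (adjusted p = 0.0616). Without T790M tumour 1, the last was 0.86 with adjusted p = 0.0196.

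Tnfrsf22 read 7.61, 7.54, 7.59, 7.55 and 7.42 in FVB and 7.12, 7.30, 7.65, 7.22 and 7.42 in mixed-strain normals. It read 7.49, 8.54, 7.90 and 8.31 in L858R, 8.58, 8.28, 7.92, 8.06 and 8.09 in L858R+T790M and 7.14, 8.65, 7.69, 7.85 and 7.58 in T790M tumours. L858R+T790M tumours all lay above the FVB normals, while 1 L858R tumour lay within its normals. The differences were 0.72 ± 0.22 (adjusted p = 0.0125), 0.64 ± 0.21 (adjusted p = 0.0193) and 0.24 (adjusted p = 0.391, not passing). A further probe set, which matches both genes, was higher in all 3 genotypes (1.37, 1.50 and 0.82). T790M tumour 2 gave the highest T790M value for Tnfrsf22, Tnfrsf23, Tnfrsf21, Tnfrsf12a and Tnfrsf10b alike.

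Tnfrsf10b, the mouse death receptor for TRAIL, did not pass in any of the 3 comparisons (0.11, 0.35 and 0.13, adjusted p = 0.664, 0.108 and 0.584). Its values ran from 5.40 to 6.30 over the normals and from 5.64 to 6.83 over the tumours, among the 6064 dimmest genes.

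**Figure D2:**
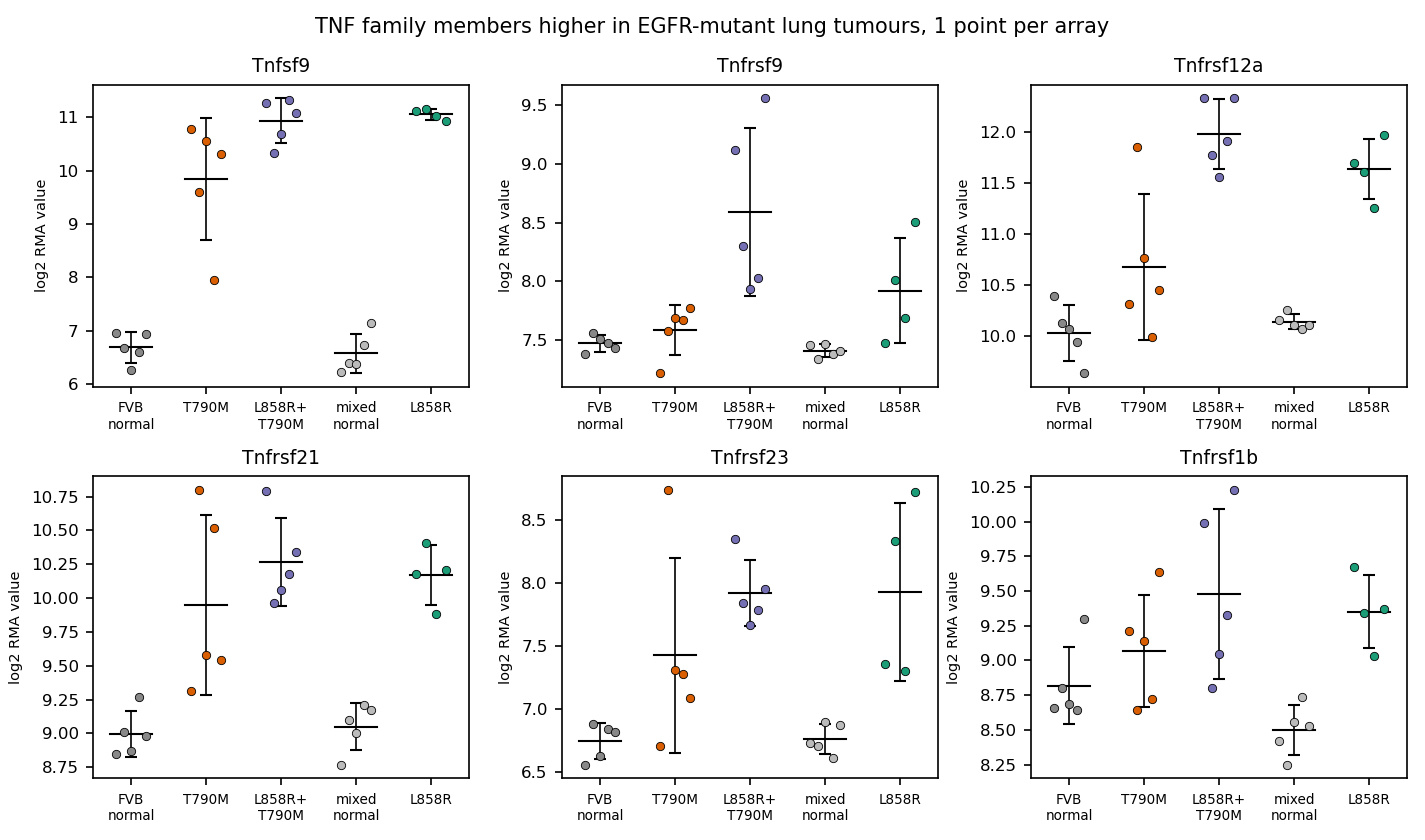
Log2 level (y axis) of 6 members on every array, by group (x axis: FVB normals, T790M, L858R+T790M, mixed-strain normals, L858R); bars are group mean ± SD. Tnfsf9 and Tnfrsf21 separate tumours from normals in each genotype. Tnfrsf9 is above its normals on all 5 L858R+T790M arrays (7.94 to 9.56) and, narrowly, on all 4 L858R arrays (7.48 to 8.51, mixed-strain normals up to 7.47).

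Tnfsf10 (TRAIL), the ligand that triggers apoptosis through Tnfrsf10b, fell in each genotype. FVB normals read 10.74, 10.97, 11.12, 11.02 and 11.01 and mixed-strain normals 11.14, 11.36, 11.37, 11.56 and 11.25. L858R tumours read 8.90, 8.04, 8.40 and 8.06, L858R+T790M tumours 8.76, 7.66, 9.59, 8.14 and 9.82, and T790M tumours 10.56, 7.65, 9.28, 7.45 and 8.94. No tumour reached the normal range, though T790M tumour 1, which also stood nearest the normals over all genes, was close at 10.56 against the lowest normal at 10.74. The L858R decrease was 7.92-fold (log2 difference -2.99 ± 0.47, adjusted p = 2.76e-05). The L858R+T790M decrease was 4.53-fold (-2.18 ± 0.44, adjusted p = 0.000502), and the T790M decrease 4.58-fold (-2.20 ± 0.44, adjusted p = 0.000434). Both other probe sets fell as well (log2 differences between -2.99 and -1.62). The pooled SD of Tnfsf10 was 0.971 among tumours of a group and 0.149 among normals.

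Tnfrsf19 (TROY), a receptor known from developing epithelium and nervous system, had the steepest fall of the family. Normal lungs read 8.97, 9.36, 9.28, 9.15 and 8.69 (FVB) and 10.19, 9.81, 9.72, 9.56 and 9.75 (mixed strain). L858R tumours read 7.07, 5.83, 6.11 and 5.55, L858R+T790M tumours 6.14, 5.45, 7.86, 6.09 and 6.99, and T790M tumours 7.50, 6.06, 7.40, 5.95 and 6.08. The highest tumour, at 7.86, was below the lowest normal lung. The decreases were 12.7-fold (-3.67 ± 0.40, adjusted p = 4.27e-07), 6.00-fold (-2.58 ± 0.38, adjusted p = 1.68e-05) and 5.63-fold (-2.49 ± 0.38, adjusted p = 2.55e-05) in the same order. Most tumour values lay below the array medians and no detection call was used, so these folds are those of RMA values. Both other probe sets also fell in each genotype, by less (log2 differences between -1.30 and -0.44).

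The endothelial list fell on the same arrays: its mean was 11.46 to 12.13 in FVB and 11.79 to 11.94 in mixed-strain normals, 8.85 to 10.09 in L858R, 8.32 to 10.49 in L858R+T790M and 8.37 to 10.84 in T790M tumours. T790M tumour 1, highest among tumours for Tnfsf10, was also highest for this list, at 10.84. The fibroblast list ran from 11.08 to 12.10 in the normals and from 8.38 to 10.58 in the tumours. Their part in the falls of Tnfsf10 and Tnfrsf19 was not tested.

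**Figure D3:**
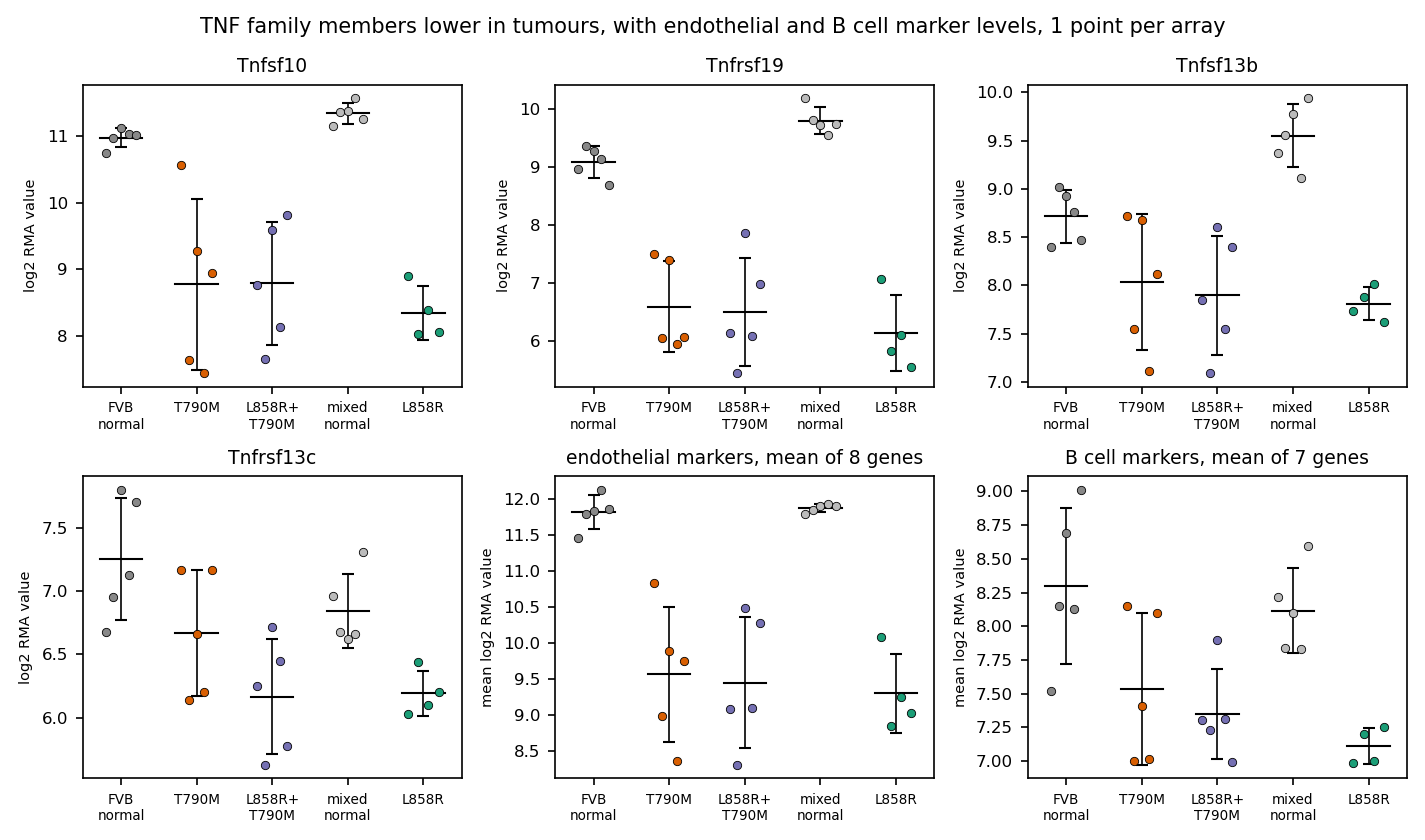
Log2 level (y axis) on every array by group (x axis, same order as for the higher members; bars are mean ± SD) for Tnfsf10, Tnfrsf19, Tnfsf13b and Tnfrsf13c, and the mean log2 level of 8 endothelial and 7 B cell genes. Tnfrsf19 has no tumour above 7.86 and no normal lung below 8.69, and the endothelial mean has no tumour above 10.84 and no normal lung below 11.46.

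Of the TNF receptors proper, Tnfrsf1b (TNFR2), known mainly from leukocytes and endothelium, rose in L858R tumours. Mixed-strain normals read 8.42, 8.25, 8.56, 8.74 and 8.53 and L858R tumours 9.67, 9.34, 9.03 and 9.37, without overlap (0.85 ± 0.24, adjusted p = 0.00744). FVB normals read 8.66, 8.80, 8.69, 8.64 and 9.30, L858R+T790M tumours 9.99, 8.80, 9.05, 9.33 and 10.23, and T790M tumours 9.21, 8.64, 9.14, 8.72 and 9.64, with overlap. The rise in L858R+T790M tumours (0.66 ± 0.23, adjusted p = 0.0279) was carried by tumours 1 and 5, and without both it was 0.24 with adjusted p = 0.395. T790M tumours did not pass (0.25, adjusted p = 0.413). A second Tnfrsf1b probe set passed in L858R tumours alone (0.49, then 0.20 and -0.00).

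The alveolar macrophage list ran from 10.96 to 11.80 in L858R tumours, against 9.76 to 10.29 in their normals, and from 9.02 to 11.11 in L858R+T790M tumours. Among the latter it was highest in tumour 4, and read 10.87 and 10.56 in tumours 1 and 5. The neutrophil list read 10.44 and 9.33 in L858R+T790M tumours 1 and 5, and 7.65 to 8.55 in the others. FVB normals ran from 8.42 to 11.19 for it. L858R tumours read 9.45, 7.37, 7.39 and 7.29, against 8.17 to 8.95 in mixed-strain normals. The part of either list in the Tnfrsf1b difference was not tested.

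Tnfrsf1a (TNFR1), the broadly expressed death-domain receptor of TNF, fell slightly. Mixed-strain normals read 11.26, 11.19, 11.25, 11.32 and 11.21 and L858R tumours 10.91, 10.95, 11.09 and 10.89 (-0.29 ± 0.10, adjusted p = 0.0205). FVB normals read 11.18, 11.45, 11.27, 11.42 and 11.48, T790M tumours 11.11, 11.13, 11.07, 10.69 and 10.92 (-0.38 ± 0.09, adjusted p = 0.00215), and L858R+T790M tumours 11.09, 11.43, 11.28, 11.05 and 11.45 (-0.10, adjusted p = 0.429). The L858R call was lost with array medians centred (-0.22, adjusted p = 0.0695) and without L858R tumour 4 (-0.26, adjusted p = 0.0553). The ligand Tnf itself rose by 0.47 in L858R+T790M tumours (adjusted p = 0.02) and did not pass in L858R (0.13) or T790M tumours (0.11). L858R+T790M tumours 1 and 5 read 7.29 and 7.85 for Tnf, the other 3 from 6.64 to 6.71 and FVB normals from 6.48 to 6.62. Its difference was 0.27 without tumour 5 (adjusted p = 0.0398), 0.41 without tumour 1 (adjusted p = 0.0608) and 0.11 without both (adjusted p = 0.219).

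Among the genes of B cell survival, Tnfsf13b (BAFF), a ligand, read 9.37, 9.56, 9.78, 9.11 and 9.94 in mixed-strain normals and 7.73, 7.88, 8.01 and 7.62 in L858R tumours, a 3.34-fold fall (-1.74 ± 0.30, adjusted p = 8.23e-05). FVB normals read 8.40, 9.02, 8.93, 8.76 and 8.47, L858R+T790M tumours 7.85, 7.09, 8.60, 7.55 and 8.40, and T790M tumours 8.72, 7.55, 8.68, 7.11 and 8.12. These groups overlapped with their normals; the difference passed in L858R+T790M (-0.82 ± 0.28, adjusted p = 0.0281; lost in 6 of 10 fits with 1 array left out) and not in T790M tumours (-0.68 ± 0.28, adjusted p = 0.0626). Without T790M tumour 1 the latter was -0.85 with adjusted p = 0.0221. A second Tnfsf13b probe set was lower in all 3 genotypes (-1.34, -0.60 and -0.49, each passing) and a further one passed in none (0.04, 0.07 and 0.04).

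Tnfrsf13c (BAFF receptor) read 6.96, 6.68, 6.62, 6.66 and 7.31 in mixed-strain normals and 6.03, 6.44, 6.10 and 6.20 in L858R tumours (-0.65 ± 0.26, adjusted p = 0.0486). This call was lost in 7 of 9 fits that left out 1 array (adjusted p up to 0.122), and with centring, repeated quantile normalization, array weights or the replicate block. FVB normals read 6.68, 6.95, 7.80, 7.13 and 7.70, L858R+T790M tumours 6.25, 5.63, 6.72, 6.45 and 5.78, and T790M tumours 7.17, 6.14, 6.66, 6.20 and 7.17. L858R tumours lay below their normals, and L858R+T790M tumours overlapped with theirs in 1 array. The fall in L858R+T790M tumours was -1.09 ± 0.25 (adjusted p = 0.00132) and passed in every fit with 1 array left out. T790M tumours did not pass (-0.58, adjusted p = 0.0633).

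Tnfrsf13b (TACI), the receptor shared by BAFF and APRIL, fell in L858R tumours. Mixed-strain normals read 7.90, 7.59, 8.10, 8.01 and 8.41 and L858R tumours 7.35, 7.57, 7.06 and 6.48 (-0.89 ± 0.32, adjusted p = 0.0286). FVB normals read 7.40, 8.08, 8.08, 7.81 and 8.87, L858R+T790M tumours 7.43, 6.69, 7.64, 7.45 and 7.38, and T790M tumours 8.59, 6.76, 7.41, 7.49 and 8.21, and neither difference passed (-0.73, adjusted p = 0.0611, and -0.36, adjusted p = 0.37). Tnfrsf17 (BCMA), a receptor of plasma cells, read 5.85, 5.79, 6.20, 5.88 and 6.10 in mixed-strain normals and 5.51, 5.76, 5.69 and 5.60 in L858R tumours (-0.32 ± 0.12, adjusted p = 0.0279). Each call was lost in 4 of 9 fits with 1 array left out, among them that without L858R tumour 4 (Tnfrsf13b -0.68, adjusted p = 0.117; Tnfrsf17 -0.31, adjusted p = 0.0601).

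The mean of 7 B cell genes moved the same way, from 7.52 to 9.01 in FVB and 7.83 to 8.59 in mixed-strain normals, to 6.99 to 7.25 in L858R, 6.99 to 7.90 in L858R+T790M and 7.00 to 8.15 in T790M tumours. T790M tumours 1 and 5, the highest T790M arrays for Tnfrsf13b and joint highest for Tnfrsf13c, were also the highest for the B cell list (8.15 and 8.10). RMA values have no zero, so no B cell marker was at 0. The part of this list in the falls was not tested.

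Tnfrsf14 (HVEM), the receptor of LIGHT (Tnfsf14), fell in L858R and T790M tumours. Mixed-strain normals read 7.00, 7.29, 7.38, 6.94 and 7.33 and L858R tumours 6.24, 6.18, 6.32 and 6.46, all below (-0.89 ± 0.12, adjusted p = 4.06e-06). FVB normals read 6.61, 6.92, 7.04, 6.92 and 7.02, T790M tumours 6.63, 6.38, 6.75, 6.55 and 6.74 (-0.29 ± 0.11, adjusted p = 0.0415), and L858R+T790M tumours 6.79, 6.49, 6.79, 6.73 and 7.10 (-0.12, adjusted p = 0.433). The T790M call was lost in 7 of 10 fits that left out 1 array. Tnfsf14 fell in T790M tumours (-0.25 ± 0.10, adjusted p = 0.0489), a call lost in 6 of 10 fits with 1 array left out (adjusted p up to 0.165), and did not pass in L858R (-0.15) or L858R+T790M tumours (-0.14).

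In the RANK system of bone and mammary gland biology, the ligand Tnfsf11 (RANKL) rose by small amounts. The difference in L858R was 0.32 ± 0.12 (adjusted p = 0.0304), that in L858R+T790M 0.42 ± 0.11 (adjusted p = 0.00417) and that in T790M 0.30 ± 0.11 (adjusted p = 0.0364). FVB normals read 5.96, 5.97, 6.00, 5.88 and 6.06 and mixed-strain normals 5.63, 5.74, 5.93, 5.80 and 5.86. L858R tumours read 6.04, 6.18, 6.12 and 6.12, L858R+T790M tumours 6.26, 6.80, 6.30, 6.55 and 6.08, and T790M tumours 6.24, 5.94, 6.24, 6.57 and 6.36. T790M tumours overlapped with the FVB normals and the other genotypes did not overlap with theirs. The probe set was among the 6064 dimmest genes, and of the 3 calls only that in L858R+T790M held whichever array was left out. A second probe set agreed in L858R+T790M (0.66, passing) but read 0.07 in L858R and 0.49 in T790M tumours without passing.

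Its receptor Tnfrsf11a (RANK) read 7.23, 7.06, 7.22, 7.11 and 7.05 in FVB normals and 7.30, 7.60, 7.27, 7.24 and 7.40 in L858R+T790M tumours (0.23 ± 0.09, adjusted p = 0.0419; lost in 5 of 10 fits with 1 array left out, adjusted p up to 0.137). The other genotypes did not pass with this probe set, whereas a dimmer one passed in each (0.52, 0.43 and 0.60). The decoy Tnfrsf11b (osteoprotegerin) did not pass (-0.15, 0.12 and 0.17), whereas its dimmer probe set was higher in L858R+T790M (0.91 ± 0.34, adjusted p = 0.047) and T790M tumours (1.57 ± 0.34, adjusted p = 0.001).

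Among costimulatory receptors of T cells, Tnfrsf4 (OX40) read 8.97, 9.14, 9.14, 9.02 and 9.13 in FVB normals and 9.33, 9.39, 9.17, 9.29 and 9.58 in L858R+T790M tumours. The arrays did not overlap, but the rise of 0.27 ± 0.10 (adjusted p = 0.0433) was lost in 9 of 10 fits that left out 1 array. Its neighbour Tnfrsf18 (GITR), and Tnfrsf8 (CD30), Tnfsf4 (OX40 ligand) and Tnfsf8 (CD30 ligand), did not pass in any of the 3 comparisons of tumours with normals, with log2 differences between -0.15 and 0.19. Tnfrsf25 (death receptor 3) read 6.66, 6.62, 6.67, 7.11 and 6.67 in mixed-strain normals and 7.30, 5.67, 5.95 and 5.72 in L858R tumours. That is, 3 tumours were below and 1 above all normals, and the fall of -0.59 ± 0.22 passed (adjusted p = 0.0375), but not in 4 of 9 fits with 1 array left out, such as that without L858R tumour 4 (-0.44, adjusted p = 0.144). L858R+T790M (-0.43, adjusted p = 0.112) and T790M tumours (-0.30, adjusted p = 0.278) did not pass for Tnfrsf25.

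Between genotypes on the same strain, L858R+T790M against T790M tumours, 2 members passed, both higher in L858R+T790M, against 1.59% of all genes. Tnfrsf12a differed by 1.30 ± 0.24 (adjusted p = 0.00922), although T790M tumour 2 at 11.85 lay within the L858R+T790M range. Tnfrsf9 differed by 1.00 ± 0.23 (adjusted p = 0.0315) without overlap of the arrays (2.26% of all genes, 2 members), 7.94 being the lowest L858R+T790M and 7.77 the highest T790M value. L858R+T790M tumours 1 and 5 were the 2 highest arrays for Tnfrsf9 and Tnfrsf12a. Without both, the difference was 1.07 for Tnfrsf12a (adjusted p = 0.133) and 0.50 for Tnfrsf9 (adjusted p = 0.224). The Tnfrsf9 call was also lost without either one alone (0.87, adjusted p = 0.111, and 0.76, adjusted p = 0.0673) and without T790M tumour 1 or 4. The Tnfrsf12a call held whichever single array was left out. In a fit to these 10 arrays alone neither passed (adjusted p = 0.267 for Tnfrsf12a and 0.365 for Tnfrsf9).

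The L858R effect, after its own normals, was set against each of the others. Against L858R+T790M, 0 members passed in limma (0.0715% of all genes called), 3 had an unadjusted p under 0.05 (9.54% of all genes did), and the smallest adjusted p was 0.0711 for Tnfrsf14 (-0.77 ± 0.16). Against T790M, 0 passed (0.418% of all genes), 7 had an unadjusted p under 0.05 (14.7% of all genes did), and Tnfrsf14 again had the smallest adjusted p, 0.0991 (-0.60 ± 0.16). A member called in L858R tumours and not in another genotype, such as Tnfrsf13b, or the reverse, is therefore not shown to differ between them.

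Between the 2 sets of normal lungs, mixed strain against FVB, 1 member passed, against 1.04% of all genes. Tnfsf8 read 6.71, 6.83, 6.77, 6.91 and 6.63 in mixed-strain and 7.00, 7.09, 7.09, 7.06 and 7.08 in FVB normals (-0.29 ± 0.07, adjusted p = 0.0449). The 2 sets did not overlap, as for 5 members and 10.4% of all genes, yet the Tnfsf8 call was lost in each of the 10 fits that left out 1 array. The other members without overlap were Tnfsf13b, Tnfrsf19 and Tnfsf10, higher in mixed-strain normals, and Tnfrsf10b, lower there. None of them passed. In a fit to these 2 sets alone 6 members passed, and 0 with array medians centred. The L858R falls of Tnfsf13b, Tnfrsf19 and Tnfsf10 were thus measured from higher normals than those of the FVB genotypes.

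Tumours of a genotype varied more than normals of a strain for 24 of the 27 members, the median ratio of pooled SDs being 1.89. Tnfrsf9 had the highest ratio, 8.10 (0.507 among tumours and 0.0626 among normals), followed by Tnfsf10 at 6.53. Tnfrsf14, Tnfrsf18 and Tnfsf14 varied less among tumours than among normals. The main fit shared 1 spread per gene over all groups. For the 24 members, p-values between tumours thus drew partly on the narrower normals, and those between normals partly on the wider tumours.

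**Figure D4:**
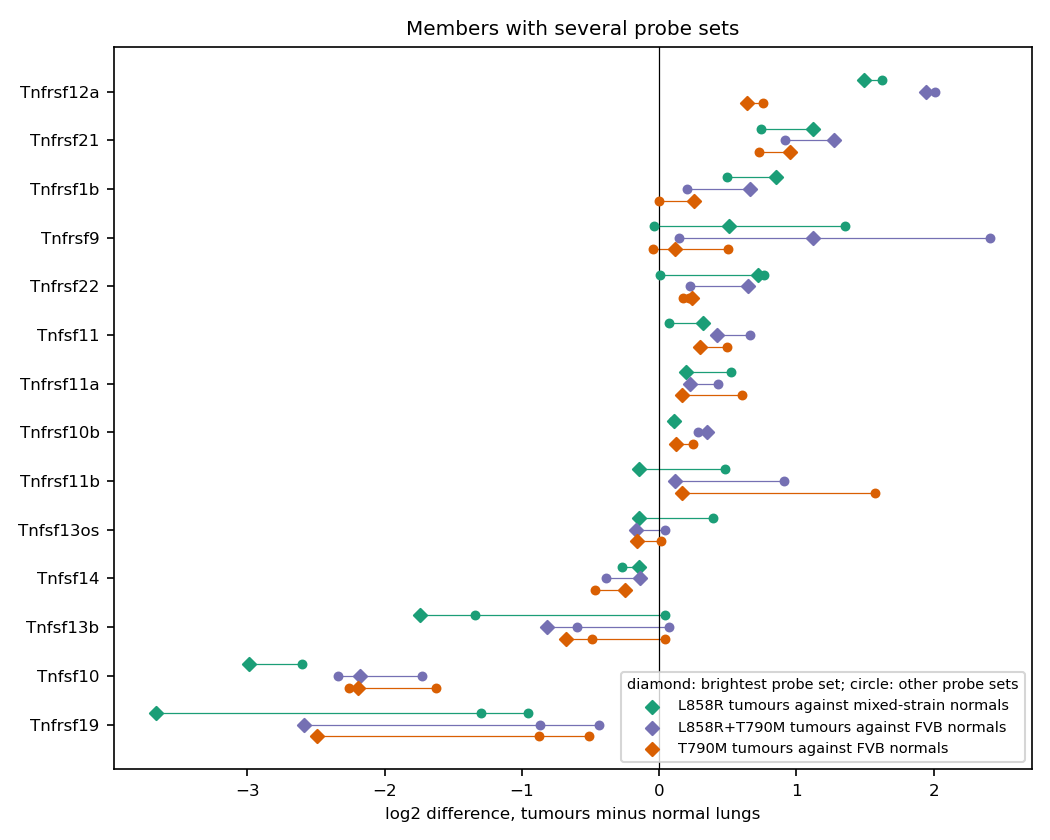
Log2 difference (x axis) for every probe set of the 14 members (y axis) with more than 1, in each tumour genotype against its normals; diamonds are the brightest probe set, used elsewhere in the text, and circles the others. The probe sets of Tnfsf10, Tnfrsf19, Tnfrsf12a and Tnfrsf21 lie on the same side of 0, while those of Tnfrsf9 spread from -0.04 to 2.41.

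The counts of the 4 lists that follow stand beside 23.3%, 20.2% and 21.9% of all genes called higher, and 18.1%, 16.1% and 17.9% called lower, in L858R, L858R+T790M and T790M tumours. Family members whose symbols lack the prefix were measured by a list of 15 genes. In L858R, L858R+T790M and T790M tumours, 2, 3 and 0 were higher and 4, 4 and 7 lower, with medians of -0.05, -0.12 and -0.12. Ltb (lymphotoxin beta, a lymphoid organiser) fell in all 3 genotypes (log2 difference -1.92, -1.44 and -1.07), the T790M call being lost in 6 of 10 fits with 1 array left out (-0.61 without T790M tumour 2, adjusted p = 0.167). Fas, the classic death receptor, fell too (-1.18 in L858R, -0.61 in L858R+T790M and nearly -1 in T790M tumours), the L858R+T790M call being lost in 7 of 10 such fits. Cd27, a costimulatory receptor of lymphocytes, fell likewise (-1.15, -1.22 and -1.10). Ltbr, the lymphotoxin beta receptor, rose by 0.35 in L858R and 0.44 in L858R+T790M tumours. Eda2r, a receptor for ectodysplasin A2, rose in L858R+T790M tumours (0.89 ± 0.17, adjusted p = 0.000243) and did not pass in L858R (0.14) or T790M tumours (0.23). L858R+T790M tumours were above T790M tumours for Eda2r (0.66, adjusted p = 0.048), a call lost in 7 of 10 fits that left out 1 array.

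Of 6 TRAF adaptors measured, 2, 2 and 3 were higher and 2, 2 and 1 lower. Traf4, an adaptor abundant in epithelium, rose by 1.47 ± 0.17, 1.36 ± 0.16 and 1.54 ± 0.16, and Traf5, an adaptor of lymphocyte costimulation, fell (-1.11, -0.77 and -0.60). Of 10 death receptor signalling genes, 2, 5 and 1 were higher and 2, 1 and 2 lower. Ripk3, the kinase of necroptosis, rose by 0.42, 1.27 and 0.71 (the L858R call was lost in 6 of 9 fits with 1 array left out), and Cflar, which encodes the caspase-8 inhibitor cFLIP, fell (-0.99, -0.70 and -0.83). Of 16 NF-kB subunits and regulators, 0, 1 and 0 were higher and 3, 4 and 5 lower, or 18.8%, 25% and 31.2% of the list lower. The list median was -0.07, 0.06 and -0.14. The subunit gene Rela fell (-0.51, -0.37 and -0.40), as did the inhibitor gene Nfkbia (-0.84, -0.66 and -0.87). Of these 16 genes, 13, 11 and 11 did not pass. Of the 10 death receptor signalling genes, 6, 4 and 7 did not pass. Tnfaip3 read 10.71 and 11.63 in L858R+T790M tumours 1 and 5, and 9.13 to 9.44 in the others of the genotype. FVB normals read 9.58 to 10.02 for it. Birc3, of the death receptor list, read 10.78 to 10.92 in L858R tumours and 10.33 to 10.62 in mixed-strain normals.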

How the data were processed

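Total RNA from 24 mouse lung samples was hybridised to MOE 430 2.0 arrays. Per the submitters' processing notes the authors used RMA (version and parameters: not given in the sources used here), and the deposited values are log2 levels, 1 per probe set and array. Of 45101 probe sets, 34945 were annotated to 1 gene by the platform table, 932 to several and 9160 to none, and 64 were controls; symbols were updated through Entrez identifiers for 34741. The brightest probe set stood for each of 18193 genes, and 12 of the 27 members were among the 6064 dimmest genes. No filter on low values was used.

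Group means were fitted over all 24 arrays with limma 3.58.1 (R 4.3.3; eBayes with trend, 19 residual degrees of freedom), and p-values were adjusted over all genes by Benjamini-Hochberg; genes under 0.05 were called. On simulated data for L858R against mixed-strain normals, 82 of 100 genes with a log2 difference of 1 added, 99 of 100 with 2, and 6 unchanged genes were called. The simulation changed few genes and gave all groups the same spread per gene, unlike the data. Its rates therefore do not carry over to the comparisons above. Every member was named; each array is given for members whose called groups did not overlap or that differed between tumour genotypes. The members and the marker and pathway lists were chosen with earlier results of these data known. Alternatives were other scalings, the median over probe sets, a filter on dim genes, array weights, no trend, fits to fewer groups, pooled normals, a replicate block and each array left out. The number of arrays limits the precision. Promoters came from RefSeq (GRCm38.p6).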

Additional observations from a re-analysis of the deposited data

Results flagged for a closer look

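In 6 of 135 member and group sets of 4 or 5 arrays, 1 array stood far from the rest of its group, a distance that chance gives in about 1 of 20 sets. These were Tnfrsf13b in L858R+T790M tumour 2 (6.69, the others 7.38 to 7.64), Tnfrsf14 in FVB normal 1 (6.61, the others 6.92 to 7.04) and Tnfrsf17 in FVB normal 5 (6.10, the others 5.85 to 5.90). The other 3 were Tnfrsf1b in FVB normal 5 (9.30, the others 8.64 to 8.80), Tnfrsf25 in mixed-strain normal 4 (7.11, the others 6.62 to 6.67) and Tnfrsf8 in L858R tumour 4 (6.74, the others 6.34 to 6.35).

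In the fit to all arrays, the tumour effect differed between the genotypes on the FVB strain for Tnfrsf12a and Tnfrsf9. The log2 differences were 1.30 and 1.00, both higher in L858R+T790M than in T790M tumours in limma's test across all genes. Neither passed in a fit to these 2 groups alone, nor without L858R+T790M tumours 1 and 5 together.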

How the results depend on the processing

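No called difference of a member changed sign under any alternative. In L858R+T790M against T790M tumours, 5 members passed with array weights, 0 in a fit to the groups compared (5 at an unadjusted p under 0.05), 0 without L858R+T790M tumours 1 and 5 together (7 unadjusted; chosen after seeing the data), and 1 to 3 without 1 array (1 without L858R+T790M tumour 1 or 5 or T790M tumour 1 or 4). For L858R against L858R+T790M, strain-adjusted, 1 passed with array weights, 3 as a direct difference between tumours and 0 to 1 without 1 array; against T790M these were 1, 2 and 0 to 1. Between the normals, 9 passed with array weights and 6 in a fit to the groups compared, but 0 with array medians centred, quantile normalization again, the 6064 dimmest genes left out, the replicate block or any 1 array left out (2 to 8 unadjusted). Against normals, leaving out 1 array gave 10 to 16 in L858R, 10 to 14 in L858R+T790M and 5 to 12 in T790M tumours. Centring moved the share of higher calls over all genes from 56.3% to 67.3% in L858R and from 65.1% to 80.7% between the normals, and the members to 8 higher and 5 lower in L858R and 7 higher and 3 lower in T790M tumours. Replicate numbers did not pair the arrays (median correlation of deviations 0.0195 for 46 same-numbered pairs, -0.0100 for 184 others); with the number as a block 14, 15, 10 and 2 members passed in L858R, L858R+T790M and T790M against normals and L858R+T790M against T790M.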
